A study of Mus musculus with 14 samples.

Results

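Taf9b, its close relative Taf9 and 8 further genes for exchangeable or cell-type-specific parts of the core promoter machinery (Taf4, Taf4b, Taf7, Taf7l, Tbp, Tbpl1, Tbpl2 and Taf3) were followed through 11 mouse RNA-seq libraries and 2 lists of ChIP-seq peaks. The members were chosen by gene symbol, matched through the RefSeq identifier of each row, and all 10 were found among the 23152 loci listed in each of the 6 expression tables. The study addressed what TAF9B does as mouse embryonic stem (ES) cells become motor neurons. ES cells were cultured as embryoid bodies (EBs) in retinoic acid and the smoothened agonist SAG and sampled on days 2, 4 and 6.

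Wild-type (WT) cultures were the JM8 clone and the cultures labelled knock-out (KO) were the clone Taf9b_BG10, labelled TAF9B -/-, both on a C57BL/6 background and both grown as ES cells on mouse fibroblast feeders. By the study's methods the KO clone is a male line with the Taf9b coding exons exchanged for a LacZ-Neo cassette, and Taf9b, on the X chromosome, has no second copy there. Tissue came from newborn C57BL/6 mice: spinal column labelled WT, spinal column labelled TAF9B -/- (from mice derived from the KO clone) and spinal cord labelled WT. ChIP-seq with antibodies to TAF9B and to RNA polymerase II (POL2) used EB motor neuron cultures of another clone, HBG3, which carries an Mnx1-driven GFP reporter, after 8 days of differentiation. Every condition had 1 library, so a difference between any 2 libraries below has no replicate check and no error. In culture each genotype was 1 clone, so clone and genotype cannot be told apart there.

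TFIID is the general transcription factor that recognises the core promoter and helps to place RNA polymerase II there. It is built of the TATA-binding protein TBP and a set of TBP-associated factors (TAFs), many of which pair through histone folds. TAF9 pairs with TAF6 in TFIID and is also part of the histone acetyltransferase complex SAGA, and TAF9B is encoded by a separate, related gene. TAF4 is a scaffold of TFIID, with TAF4B as a form known from germ cells and gonads. TAF7 binds TAF1 and restrains its activity, and TAF7L is known from male germ cells and fat cells. TBPL1 (TRF2) and TBPL2 (TRF3) are relatives of TBP, the latter known from oocytes, and TAF3 reads a histone mark of active promoters and has a role in ES cell differentiation.

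How alike the pairs are was measured by aligning their proteins, translated from the longest complete coding sequence of each gene in GENCODE vM1. TAF9B (293 residues) and TAF9 (264 residues) were the most alike of the pairs compared, with 194 identical residues, 78.2% of the aligned positions. TAF7L and TAF7 were identical at 50.3% of aligned positions and TAF4B and TAF4 at 49.7%. TBPL2 was closer to TBP (57.5%) than TBPL1 was (39.9%), and TBPL1 and TBPL2 shared 38.9%.

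The start sites of 5 members are shown because 3 of them carried a TAF9B peak (Taf3, Tbpl1 and Tbp), while Taf9 had a POL2 peak only and Taf9b had neither. Each run gives 220 bases before the annotated transcription start and 30 bases from it, 5′ to 3′ along the gene, from the mm9 (NCBIM37) genome: Taf3 is chr2:9970194-9970443 on the minus strand, Tbpl1 is chr10:22451224-22451473 on the minus strand, Tbp is chr17:15636632-15636881 on the plus strand, Taf9 is chr13:101421078-101421327 on the plus strand and Taf9b is chrX:103416468-103416717 on the minus strand. Capitals mark matches, on either strand, to any of 5 short motifs. The letters searched were TATAAA for the TATA box, CCAAT for the promoter element of that name, GGGCGG for the GC box, CCGGAAG for the motif of ETS factors and AAGATGG for the motif of the factor YY1, and no motif's letters contain those of another.
Taf3: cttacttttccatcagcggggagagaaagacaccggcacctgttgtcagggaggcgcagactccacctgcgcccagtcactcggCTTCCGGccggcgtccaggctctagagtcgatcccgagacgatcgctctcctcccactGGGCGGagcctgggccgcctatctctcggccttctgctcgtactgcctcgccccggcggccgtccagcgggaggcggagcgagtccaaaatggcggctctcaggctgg
Tbpl1: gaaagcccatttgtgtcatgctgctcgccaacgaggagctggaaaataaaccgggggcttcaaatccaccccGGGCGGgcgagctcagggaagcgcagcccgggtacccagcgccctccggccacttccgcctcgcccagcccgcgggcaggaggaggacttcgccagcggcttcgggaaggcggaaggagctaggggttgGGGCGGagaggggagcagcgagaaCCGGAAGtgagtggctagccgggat
Tbp: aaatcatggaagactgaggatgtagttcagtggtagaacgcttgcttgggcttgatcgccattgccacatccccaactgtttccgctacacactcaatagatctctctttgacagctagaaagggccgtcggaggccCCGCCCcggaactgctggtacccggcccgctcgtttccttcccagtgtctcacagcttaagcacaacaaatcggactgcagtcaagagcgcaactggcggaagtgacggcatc
Taf9: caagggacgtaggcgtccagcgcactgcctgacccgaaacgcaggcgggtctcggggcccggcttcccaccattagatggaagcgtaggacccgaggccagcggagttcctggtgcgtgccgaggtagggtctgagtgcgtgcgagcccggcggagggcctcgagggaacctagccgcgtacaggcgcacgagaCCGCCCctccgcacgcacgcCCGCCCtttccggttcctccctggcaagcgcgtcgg
Taf9b: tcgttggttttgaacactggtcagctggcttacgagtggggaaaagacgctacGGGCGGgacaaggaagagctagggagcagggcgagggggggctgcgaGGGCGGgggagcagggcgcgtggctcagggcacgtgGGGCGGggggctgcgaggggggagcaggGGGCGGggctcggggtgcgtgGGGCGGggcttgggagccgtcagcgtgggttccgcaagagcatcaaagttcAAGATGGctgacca

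None of the 5 runs held the TATA box or the CCAAT box as spelled here, and all 5 held a GC box. The Taf9b run held 5 GC boxes and 1 YY1 match, which lies at the start codon of the transcript Taf9b-002 (19 bases of 5′ UTR). The ETS letters searched were present once in each of the Taf3 and Tbpl1 runs and absent from the Tbp, Taf9 and Taf9b runs. Every motif was matched by its exact letters only, so ETS or YY1 sites of another spelling are neither marked nor counted. Among 45982 windows from 250 bases before to 50 after annotated starts of protein-coding transcripts, the TATA box was present in 11.4%, the CCAAT box in 35.7%, the GC box in 44.2%, the ETS motif in 10.9% and the YY1 motif in 6.82%. In windows of that same length Taf7l had 2 TATA matches and no GC box, with 47% G and C, while Taf4 had 6 GC boxes and 77.3% G and C.

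Taf9b, the gene targeted in the KO clone, was at 0.537 FPKM (fragments counted, scaled by transcript length and by library size) in ES cells labelled WT and 3.06 in ES cells labelled KO. On EB day 2 it was at 0.516 FPKM in the WT-labelled and 4.08 in the KO-labelled library. On EB day 4 it was at 1.96 FPKM in the WT-labelled and 4.27 in the KO-labelled library, and on EB day 6 at 1.37 and 4.01. At all 4 culture stages the KO-labelled library thus held the higher listed level, by 5.70-fold in ES cells (log2 ratio 2.51), 7.91-fold on day 2 (2.98), 2.18-fold on day 4 (1.12) and 2.93-fold on day 6 (1.55). In spinal column the order was the other way round, with 6.65 FPKM in the library labelled WT and 3.31 in that labelled KO (log2 ratio -1.01), and spinal cord labelled WT was at 7.44 FPKM.

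The 5 KO-labelled libraries lay within a 1.40-fold range of each other (3.06 to 4.27 FPKM), whereas the 6 WT-labelled ones spanned 14.4-fold, and the KO-labelled values fell between the WT cultures and the WT tissues without overlapping either. These values do not check the labels. The file gives 1 value for the locus as a whole, and in the annotated transcript Taf9b-001 only 750 of 2633 bases are coding, with 272 bases of 5′ UTR and 1611 bases of 3′ UTR, so that 71.5% of its length is not coding. How much of this the cassette left in place is not given in the sources used here, and where the fragments counted in the KO-labelled libraries came from was not tested. Libraries are called by their labels throughout.

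Taf9 was listed far above Taf9b in every library. The deposited Taf9 row pools 3 transcript identifiers at its locus, of which 2 belong to Taf9 and 1 to Ak6, an adenylate kinase gene, and the share of each cannot be told apart. Its value was 120.3 FPKM in ES cells labelled WT and 129.5 in those labelled KO, then 162.0 and 159.6 on day 2, 180.8 and 146.4 on day 4 and 144.7 and 118.3 on day 6. Tissue libraries were lower, at 56.2 FPKM in spinal column labelled WT, 89.2 in spinal column labelled KO and 66.7 in spinal cord. In WT-labelled libraries Taf9b and Taf9 were therefore at opposite ends: the 2 tissues had the highest Taf9b and the lowest Taf9, as the plot of both genes by stage shows.

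**Figure D1:**
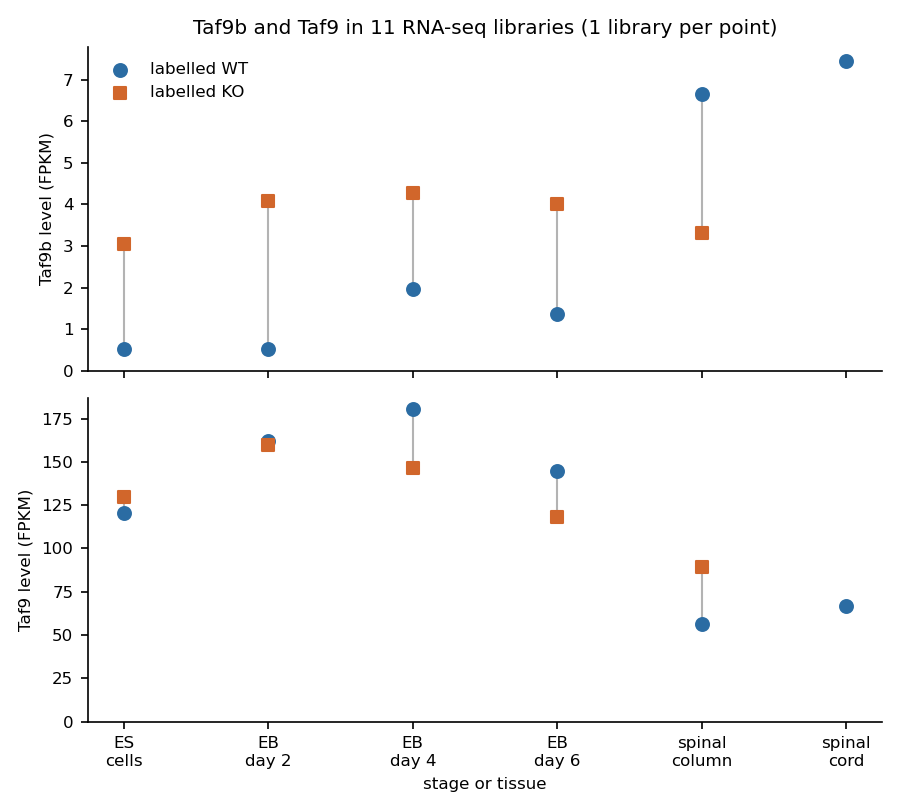
Level of Taf9b (upper panel) and Taf9 (lower panel) in FPKM, both axes from 0, in each of the 11 RNA-seq libraries by stage or tissue; blue circles are libraries labelled WT, orange squares libraries labelled KO, and a grey line joins each pair. Taf9b lies between 3.06 and 4.27 FPKM in all KO-labelled libraries and between 0.516 and 7.44 FPKM in the WT-labelled ones, while Taf9 is lower in tissue than in culture under both labels.

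Because FPKM is per length, levels can be set against each other within a library, and such a share does not depend on how the table was scaled. Taf9b made up 0.444% of the summed Taf9b and Taf9 FPKM in ES cells labelled WT, 0.317% on day 2, 1.07% on day 4 and 0.939% on day 6, but 10.6% in spinal column and 10.03% in spinal cord. The Taf9 row, which also holds the Ak6 transcript, was thus listed at 224 times the level of Taf9b in WT ES cells and at 8.98 times in spinal cord. With 1 FPKM added to both genes the share in WT ES cells was 1.25%, so the size of that gap depends on a value below 1 FPKM. In KO-labelled libraries, where the length of what was counted at Taf9b is not known, the share lay between 2.31% (ES cells) and 3.58% (spinal column). How the authors' counting treated fragments that match both genes is not given in the sources used here.

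Taf4b took a share of the Taf4 and Taf4b sum that went down along the WT cultures, from 38.4% in ES cells to 36.8% on day 2, 24.3% on day 4 and 17.8% on day 6, and was 15% in spinal column and 8.47% in spinal cord. The KO-labelled cultures stood at 40.7%, 34.4%, 31.2% and 31.3% at the same stages, so the labels parted on days 4 and 6. For the TBP pair the order ran the other way. Tbpl1 was 35.1% of the Tbp and Tbpl1 sum in ES cells labelled WT and passed Tbp on day 4 (56.2%) and day 6 (59.6%), and it was above Tbp in both spinal column libraries (58.6% labelled WT, 64.7% labelled KO) and in spinal cord (58.0%). Labelled KO it was at 50.9% on day 4, just above Tbp, and at 43.6% on day 6. Taf7l was a small part of the Taf7 and Taf7l sum, from 1.66% in WT ES cells to 6.19% on day 6 labelled WT and 11.5% on day 6 labelled KO, and it was listed at 0 in all 3 tissue libraries.

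**Figure D2:**
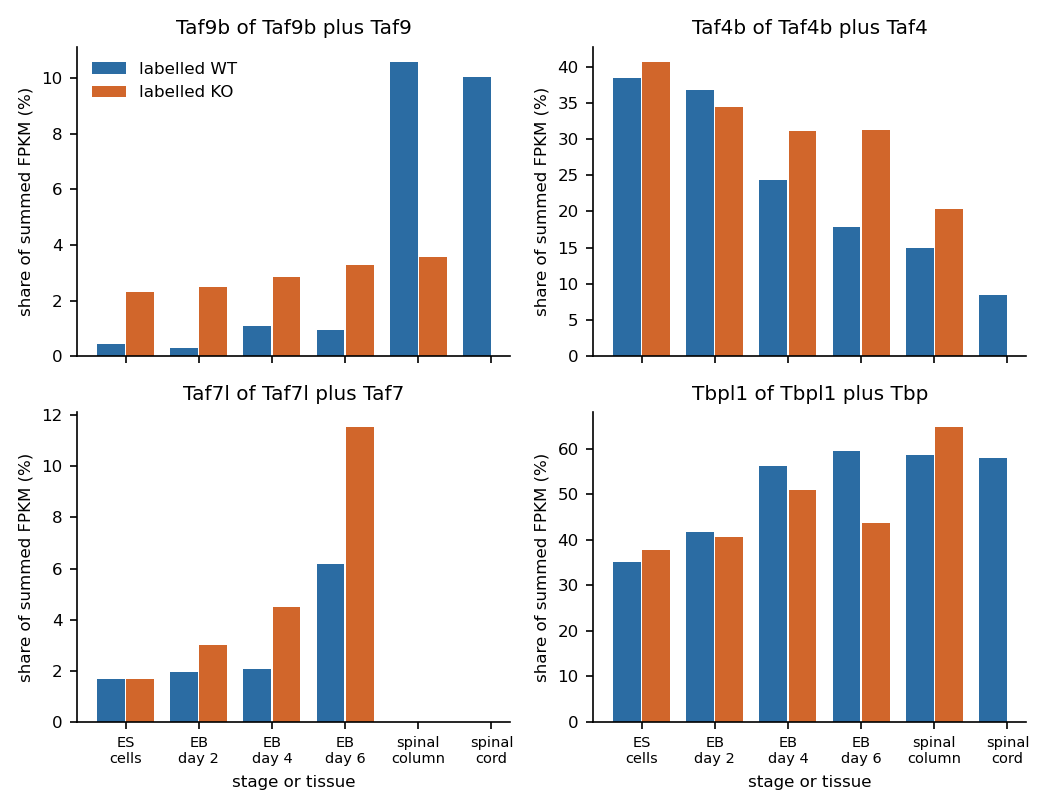
Share (%) that the variant gene takes of the summed FPKM of each of 4 paralog pairs, by stage or tissue, with bars from 0; blue bars are libraries labelled WT and orange bars libraries labelled KO, 1 library per bar, and spinal cord has a WT library only. Among WT libraries Taf9b takes its largest shares in spinal column and cord (10.6% and 10.03%), Taf4b takes its largest in ES cells (38.4%), and Tbpl1 passes 50% from day 4.

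Taf4 itself, the scaffold subunit, was at 11.6 FPKM in ES cells labelled WT and 11.5 labelled KO, 11.7 and 12.1 on day 2, 12.4 and 9.79 on day 4, and 8.07 and 8.64 on day 6. It was lower in tissue, at 3.95 FPKM in spinal column labelled WT, 2.81 labelled KO and 5.03 in spinal cord. Taf4b was at 7.22 and 7.87 FPKM in the WT- and KO-labelled ES cells, 6.84 and 6.33 on day 2, 3.99 and 4.43 on day 4, and 1.75 and 3.94 on day 6, with 0.696, 0.716 and 0.466 FPKM in spinal column labelled WT, spinal column labelled KO and spinal cord. The gap between labels in Taf4b was at most 1.11-fold up to day 4 and 2.25-fold on day 6.

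Taf7 lies among the protocadherin genes and shares a deposited locus with that region, and how fragments there were divided is not given. Its level was 41.9 and 43.9 FPKM in WT- and KO-labelled ES cells, 42.1 and 43.5 on day 2, 21.8 and 38.7 on day 4 and 33.0 and 51.3 on day 6. Tissue values were 6.28 in spinal column labelled WT, 7.34 labelled KO and 2.73 in spinal cord, so the whole range of Taf7 was 18.8-fold. The lowest cultured value, day 4 labelled WT, was the library in which Taf9, Taf4, Tbp and Taf3 each had their highest level. For Taf4 and Tbp this order depends on the scaling. As normalized with spinal cord, ES cells labelled WT had Taf4 at 12.6 FPKM and Tbp at 24.1, above the day 4 values.

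Taf7l was at 0.706 and 0.750 FPKM in WT- and KO-labelled ES cells and at 0.843 and 1.35 on day 2. It was at 0.463 and 1.83 FPKM on day 4 and at 2.18 and 6.69 on day 6. The library labelled KO was the higher of each pair, by 1.60-fold on day 2, 3.95-fold on day 4 and 3.07-fold on day 6. The day 2 and day 4 comparisons passed the 1 FPKM filter through the KO-labelled library alone.

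Tbp varied least between labels: 22.1 and 22.8 FPKM in WT- and KO-labelled ES cells, 22.3 and 22.5 on day 2, 22.9 and 19.1 on day 4, 20.3 and 20.5 on day 6, and 8.95 and 9.20 in spinal column, with 10.4 in spinal cord. All 3 tissue values lay below all 8 cultured ones. Tbpl1 was at 12.0 and 13.8 FPKM in ES cells, 16.0 and 15.4 on day 2, 29.4 and 19.8 on day 4 and 29.8 and 15.9 on day 6. The WT-labelled library was 1.49-fold above the KO-labelled one on day 4 and 1.88-fold above it on day 6. In tissue Tbpl1 was at 12.7 FPKM in spinal column labelled WT, 16.9 labelled KO and 14.3 in spinal cord, within the range of the cultures. Tbpl2 was listed at 0 in 10 of the 11 libraries and at 0.0210 FPKM in spinal column labelled WT.

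Taf3 was, like Tbp and Taf4, lower in tissue than in culture, with 6.40 and 5.67 FPKM in WT- and KO-labelled ES cells, 6.51 and 6.66 on day 2, 7.08 and 5.88 on day 4 and 5.86 and 5.50 on day 6. It was at 2.54 FPKM in spinal column labelled WT, 1.66 labelled KO and 3.12 in spinal cord. Differences between neighbours in these orders cannot be set against a spread, since no condition was repeated. In bulk samples fewer cells of a type and less RNA per cell cannot be told apart.

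The KO-labelled over WT-labelled ratios were then read against the whole table, counting loci above 1 FPKM in 1 or both libraries of a pair and past 2-fold. In ES cells 8 members entered; 1 was past 2-fold higher (Taf9b) and 0 lower, where 0.546% of all loci were higher and 0.588% lower. The other 7 members lay between -0.18 (Taf3) and 0.21 (Tbpl1) on the log2 scale. On day 2, 1 of 9 was past 2-fold higher (Taf9b) and 0 lower, against 1.19% and 1.41% of all loci. In both pairs Taf9b entered through the KO-labelled library only, so its presence in the count is tied to its being higher there.

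On day 4, 2 of 9 members were past 2-fold higher (Taf9b and Taf7l) and 0 lower, where 12.1% of all loci were higher and 4.45% lower. On day 6, 3 of 9 were higher (Taf9b, Taf4b and Taf7l) and 0 lower, against 10.6% and 9.92%. Tbpl1 had the lowest member ratio on both days (-0.57 and -0.91). These 2 stages also differed by label in their marker genes: the summed level of 5 pluripotency markers (Pou5f1, Nanog, Sox2, Zfp42, Esrrb; 5 of 5 above 1 FPKM in each library) was 112.8 FPKM labelled WT and 262.7 labelled KO on day 4, and 409.6 and 960.2 on day 6. That of 5 neural progenitor markers (Sox1, Pax6, Olig2, Nkx6-1, Nes; 5 of 5 above 1 FPKM in each library) was 262.5 FPKM labelled WT and 67.5 labelled KO on day 4, and 98.6 and 18.7 on day 6. The summed level of 5 motor neuron markers (Mnx1, Isl1, Lhx3, Isl2, Chat) was 3.001 FPKM labelled WT and 6.12 labelled KO on day 4, with 1 of 5 above 1 FPKM in both, and neuronal markers summed to 28.4 and 35.0. On day 6 the motor neuron sum was 43.3 FPKM labelled WT, with 5 of 5 above 1 FPKM, and 2.86 labelled KO, with 1 of 5 above 1 FPKM and Chat at 0. Neuronal markers then summed to 784.6 FPKM labelled WT, with 5 of 5 above 1 FPKM, and 107.2 labelled KO, with 3 of 5. Germ cell markers (Ddx4, Dazl, Mael, Tex101, Sycp3) summed to 28.1 FPKM labelled WT and 46.7 labelled KO on day 6, with 4 of 5 above 1 FPKM in both. Sycp3 went the other way there (6.31 and 5.89). The germ cell sum was 12.2 FPKM labelled WT and 27.0 labelled KO on day 4. It was lower under the KO label in ES cells (33.4 and 27.2) and on day 2 (60.8 and 34.2). Fibroblast markers (Col1a1, Col1a2, Thy1, Postn, Lum), which the feeder layer could bring, summed to 332.6 and 359.4 FPKM in ES cells. They summed to 47.1 and 49.9 FPKM on day 2, 4.10 and 21.8 on day 4 and 34.8 and 91.6 on day 6. The part of these markers' cells in the Taf4b, Taf7l and Tbpl1 differences was not tested.

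**Figure D3:**
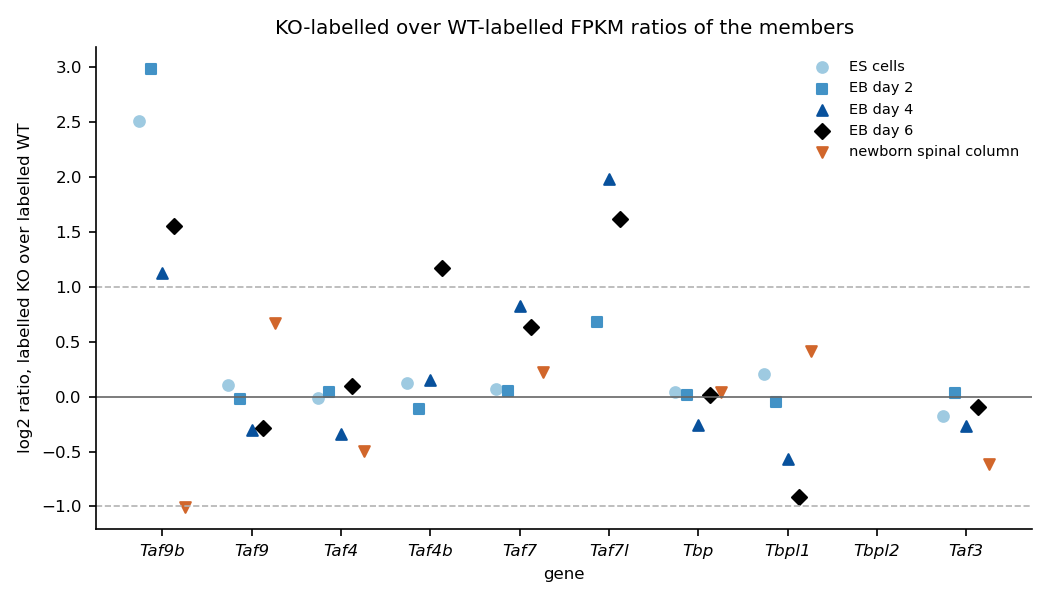
Log2 ratio of FPKM, labelled KO over labelled WT, for each member in 5 pairs of libraries, 1 library per label; symbols mark the pair, dashed lines mark 2-fold, and a gene under 1 FPKM in both libraries of a pair has no point there. Taf9b is above the upper line in the 4 culture pairs (1.12 to 2.98) and at -1.01 in spinal column, Taf7l is above it on days 4 and 6 and Taf4b on day 6.

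The label could also be compared over the 4 culture stages taken as pairs, which are stages of the same 2 clones and not repeats of a condition. The mean log2 ratio was 2.04 ± 0.85 (SD, 4 pairs) for Taf9b, 1.09 ± 0.87 for Taf7l and 0.39 ± 0.40 for Taf7, each higher under the KO label in 4 of 4 pairs. Taf7l was under 1 FPKM in both ES cell libraries, and its day 2 and day 4 pairs, like the ES cell and day 2 pairs of Taf9b, were above 1 FPKM in the KO-labelled library alone. An exact 2-sided sign-flip permutation test gave p = 0.125 for each of these 3, the smallest that 4 pairs allow, and 0.25 to 1 for the other 6 members tested. In a limma fit of log2(FPKM + 1) on stage and label across 13742 loci, 0 loci (0.00%) had an adjusted p under 0.05 and 1618 an unadjusted p under 0.05. The limma difference for Taf9b on that scale was 1.26 ± 0.18 (SE; adjusted p = 0.41). Both tests rest on the variation between stages of 1 clone per label, which is not variation between clones.

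In newborn spinal column 7 members entered, 0 were past 2-fold higher and 1 lower (Taf9b, 2.01-fold), where 9.10% of all loci were higher and 8.49% lower. The Taf9b ratio lies at the threshold and came inside it with 0.1 FPKM added to both values (-0.99) or with 1 FPKM added (-0.83). Taf9 had the highest member ratio (0.67), and after Taf9b the lowest were Taf3 (-0.61) and Taf4 (-0.49). The 2 spinal column libraries differed in other tissues' genes: 5 keratins of skin (Krt5, Krt14, Krt1, Krt10, Krt15, a list chosen after their values were seen) summed to 6.78 FPKM labelled WT and 763 labelled KO, and neuronal markers (Tubb3, Map2, Snap25, Elavl3, Stmn2) to 703.7 and 449.2. Markers within a tissue did not all go one way. Muscle markers summed to 6284 FPKM labelled WT and 9034 labelled KO, with Tnnt3 (2927 and 4489) and Actc1 (2843 and 4211) higher under the KO label, Myh3 (420 and 218) lower and Acta1 listed at 0 in both. Cartilage and bone markers summed to 212.4 and 153.0 FPKM, with Col2a1 (155.7 and 83.6), Acan (8.10 and 4.46) and Sox9 (3.99 and 2.74) lower under the KO label and Col10a1 (40.6 and 57.7) and Matn1 (3.94 and 4.52) higher. The 5 motor neuron markers summed to 28.43 FPKM labelled WT and 13.02 labelled KO, with 2 of 5 above 1 FPKM in both and Mnx1 at 0.353 and 0. Their part in the member ratios was not tested.

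The remaining TFIID subunits (Taf1, Taf2, Taf5, Taf6, Taf8, Taf10, Taf11, Taf12 and Taf13) were all above 1 FPKM in every library. None of the 9 was past 2-fold in the 4 culture pairs, where their median log2 ratio was 0.07 in ES cells, -0.02 on day 2, -0.20 on day 4 and -0.16 on day 6, beside 0.02, 0.003, -0.03 and -0.003 over all loci. Of all loci 0.546% were past 2-fold higher and 0.588% lower in ES cells, and 1.19% and 1.41% on day 2. On day 4 the shares were 12.1% and 4.45%, and on day 6 10.6% and 9.92%. In spinal column Taf12 was 2.06-fold higher and Taf1 2.23-fold lower in the library labelled KO, where 9.10% of all loci were higher and 8.49% lower. Centred on the median of all loci, Taf12 (0.98) came inside the threshold. The subunits with the highest ratio in the culture pairs were Taf12 (0.20, ES cells), Taf8 (0.18 on day 2 and 0.21 on day 6) and Taf5 (0.08, day 4), and those with the lowest were Taf1 (-0.15 in ES cells and -0.33 on day 2), Taf11 (-0.49, day 4) and Taf13 (-0.64, day 6). Taf5l, Taf6l, Supt3, Supt7l and Tada1 are 5 genes for TAF-like and core parts of SAGA, the other complex that holds TAF9. Of these 0 were past 2-fold in any of the 5 pairs, to be read beside the same shares of all loci. Their lowest ratio was that of Tada1 on day 6 (-0.97).

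Differentiation was read along each label. Between day 6 and ES cells labelled WT, 3 of 9 members were past 2-fold higher (Taf9b 2.56-fold, Taf7l 3.08-fold and Tbpl1 2.49-fold) and 1 lower (Taf4b, 4.13-fold), where 23.2% of all loci were higher and 15.1% lower. Taf9b and Taf7l entered through day 6 alone, and with both libraries above 1 FPKM the count was 2 in place of 4. Along the cultures labelled KO, 1 of 9 was higher (Taf7l, 8.93-fold) and 0 lower, against 16.9% and 9.53%, and 0 with both libraries above 1 FPKM, since Taf7l entered through day 6 alone. There Taf9b was 1.31-fold higher, Tbpl1 1.15-fold higher and Taf4b 1.999-fold lower, just inside the threshold. These ratios cross tables that were normalized separately. Spinal cord and ES cells labelled WT stand in 1 table: there Taf9b was 12.7-fold higher in cord, and 5 members were past 2-fold lower, Taf4b by 16.9-fold, Taf7 by 16.7-fold, Taf4 by 2.51-fold, Tbp by 2.32-fold and Taf3 by 2.23-fold. This was 1 of 8 higher and 5 of 8 lower, where 30.5% of all loci were higher and 35.7% lower. Taf9b entered through cord alone and Taf4b through ES cells alone, and with both libraries above 1 FPKM 4 members were past 2-fold. The count was also 4 after centring on the median of all loci, where Tbp (-0.95) and Taf3 (-0.90) came inside the threshold.

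The other TFIID subunits were lower in cord too: 7 of 9 were past 2-fold lower and 0 higher, beside 35.7% and 30.5% of all loci. Their median log2 ratio was -1.38 beside -0.26 over all loci, from Taf5 (-2.12) to Taf11 (-0.13). After centring on the median of all loci, Taf6 (-0.94) came inside the threshold. Among the SAGA genes Taf5l had the lowest ratio (-3.11) and Tada1 the highest (1.59). Between the 2 WT tissues 1 of 7 members was past 2-fold higher in spinal column (Taf7, 2.30-fold) and 0 lower, against 17.3% and 16.0% of all loci, and these 2 values come from separate tables. In spinal cord 4 of 5 motor neuron markers were above 1 FPKM and Chat was at 0.791. Cord and column differed in their markers, cartilage and bone genes summing to 212.4 FPKM in column and 11.8 in cord, and neuronal genes to 703.7 and 1559.

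The deposited ChIP-seq peaks were placed relative to the members' start sites. The lists held 10415 TAF9B peaks and 8620 POL2 peaks, and a peak was placed at a gene where its midpoint lay within 500 bp of the start of a protein-coding transcript (GENCODE vM1, mm9). A TAF9B peak lay at 3 of 10 members (Taf3, Tbpl1 and Tbp), against 19.3% of all 22378 genes. The Taf3 peak (chr2:9970094-9970406) had a score of 242.8, above 95% of the TAF9B peaks, with its midpoint 27 bp from the start. The Tbpl1 peak (chr10:22451095-22451398) scored 185.5, above 88% of them, and lay 7 bp from the start, and the Tbp peak (chr17:15636681-15636940) scored 128.6, above 75%, at 42 bp. Each overlapped a POL2 peak, and each covers most of the run printed for its gene.

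No TAF9B peak lay within 50 kb of Taf9b, Taf9, Taf4, Taf4b, Taf7, Taf7l or Tbpl2, although 53.4% of all genes had one that near. The same 3 members thus made up the count at both distances. Other TAF9B peaks within 50 kb of these 3 included 1 inside Tbpl1, 16548 bp from the start (chr10:22434439-22434653, score 54.0, no POL2 peak). Near Tbp 1 lay 38 bp from the start of Psmb1 (chr17:15635131-15635425), the proteasome gene beside it, and near Taf3 2 were nearer to Gata3.

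POL2 was more often present: 7 of 10 members had a POL2 peak at a start (Taf9, Taf4, Taf4b, Taf7, Tbp, Tbpl1 and Taf3), against 31.7% of all genes. The highest-scoring of these was that of Tbpl1 (469.5) and the lowest that of Taf4 (63.8), which had a second of 354.2. The peak at Taf9 (chr13:101420585-101421463, score 266.8) had its midpoint 274 bp from the Taf9 start but 10 bp from that of Rad17, the gene beside it. Taf9b, Taf7l and Tbpl2 had neither kind of peak within 50 kb. On day 6 labelled WT these 3 and Taf4b had the lowest levels of the members, from 0 to 2.18 FPKM, and of these Taf4b had a POL2 peak. The peaks came from HBG3 cultures on day 8 and the levels from other clones.

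**Figure D4:**
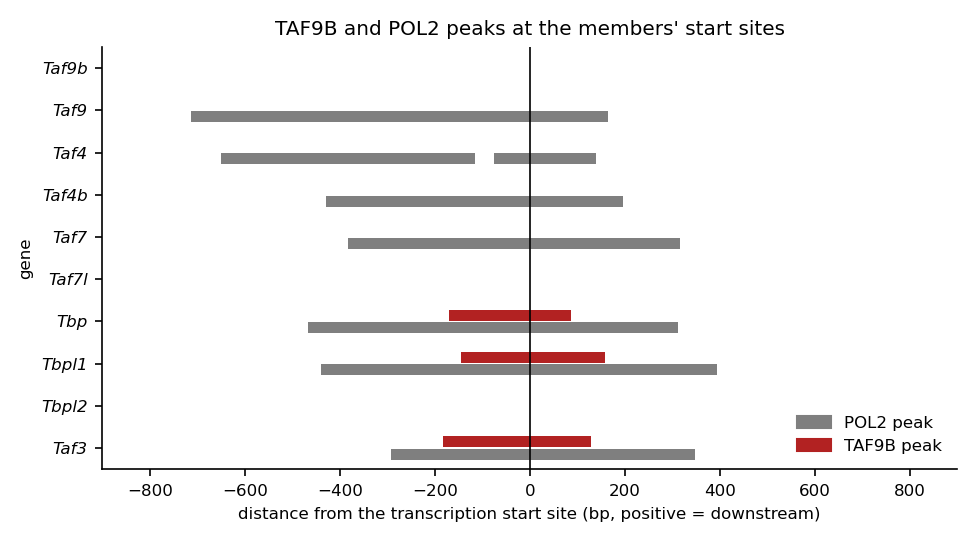
TAF9B (red) and POL2 (grey) peaks whose midpoint lies within 500 bp of a member's transcription start, drawn to scale as distance from that start in bp along the gene, 1 row per gene. TAF9B peaks appear at Tbp, Tbpl1 and Taf3, each within a wider POL2 peak, while Taf9b, Taf7l and Tbpl2 have none of either kind.

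Among the other 9 TFIID genes 6 had a TAF9B peak at a start (Taf5, Taf8, Taf10, Taf11, Taf12 and Taf13), against 19.3% of all genes, and 8 a POL2 peak, all except Taf1, against 31.7%. Counting TAF9B peaks with a score above the median of the list, 3 of 9 had one (Taf5, Taf10 and Taf12), against 12.4% of all genes at that setting. The strongest was that of Taf10 (score 439.1, above 99% of TAF9B peaks), while those of Taf8 (57.2) and Taf11 (52.0) were near the lowest score listed (50.04). Of the 5 SAGA genes 0 had a TAF9B peak at a start so placed and 2 had a POL2 peak (Taf5l and Tada1). The 0 depends on the start sites used. A TAF9B peak (chr19:8860687-8860997, score 337.8, above 98% of them) lay 2356 bp from the Taf6l start used. It covers the upstream end of the deposited Taf6l locus (chr19:8847012-8860907, minus strand). No test was made of these counts against the background shares, and each rests on 1 ChIP library.

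The genes whose levels across the 11 libraries were most like those of Taf9b, by Pearson's r of log2(FPKM + 1) among 15532 other named genes above 1 FPKM in 1 or more libraries, were Ttpal (0.88), Eif2ak1 (0.84), Sel1l (0.81), Pitpnm2 (0.78) and Fam214a (0.78). These 11 points share clones, tables and stages, so the values are a description. Ttpal, for example, was at 3.37 and 4.16 FPKM in WT- and KO-labelled ES cells, 6.85 and 4.80 in spinal column labelled WT and KO, and 11.7 in spinal cord, so it too was higher under the KO label in culture and lower in tissue. Among the members above 1 FPKM in 1 or more libraries, r with Taf9b ran from -0.62 (Taf9) and -0.61 (Tbp) to -0.15 (Taf7l). Over the 8 culture libraries alone r with Taf9b was -0.38 for Taf3, -0.32 for Tbp, -0.21 for Taf4, -0.10 for Taf4b and -0.06 for Taf9. It was 0.04 for Tbpl1, 0.19 for Taf7 and 0.48 for Taf7l.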

How the data were processed

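RNA-seq libraries (poly-A) were mapped by the authors with TopHat to RefSeq genes and quantified with Cuffdiff, and the 6 deposited tables give FPKM for 2 libraries each, normalized table by table, together with the authors' fold changes and p-values, which were not used. ChIP-seq reads were mapped to mm9 with Bowtie and peaks called with MACS. The deposited peak lists give position and a score, which ranks peaks within a list. The IgG library was not analysed here. Versions are not given in the sources used here, and depth is unknown.

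Rows were joined by first identifier and locus, and symbols came from RefSeq (GRCm38.p6 table, names only). Taf1 was matched by position. ES cells labelled WT stand in 2 tables, and their member values differed by a factor of 1.09. The table with ES cells labelled KO was used unless stated. Ratios had no pseudocount. Loci were compared where above 1 FPKM in 1 or both libraries, and loci with a failed or overloaded estimate were left out of the background. With 1 library per condition no pair of libraries was tested. Label over the 4 culture stages was tested with limma 3.58.1 (stage as a term, Benjamini-Hochberg adjustment) and an exact sign-flip permutation test, both added after the data were seen. The counting step was tested on simulated data. Peaks and sequences used GENCODE vM1 (NCBIM37) and Biopython 1.88 (global alignment, BLOSUM62). The other TFIID subunits, 5 SAGA genes, the 5 genes most like Taf9b and the marker lists followed written rules, and members and lists were chosen with earlier results of these data known.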

Additional observations from a re-analysis of the deposited data

Results flagged for a closer look

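Taf9b moved one way in every culture pair and the other way in tissue. The log2 ratio of the library labelled KO over that labelled WT was 2.51 in ES cells, 2.98 on EB day 2, 1.12 on day 4 and 1.55 on day 6, and -1.01 in newborn spinal column. No other member had 1 direction in all 4 culture pairs and the opposite one in spinal column. The difference between culture and tissue was not tested, since each value compares 1 library with 1 library.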

How the results depend on the processing

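No paired analysis by replicate number was possible because no condition had replicates, and none could be left out. A pairing by stage was added after seeing the data: for Taf9b the exact p was 0.125 over the 4 culture stages and over these with spinal column (mean log2 ratio 1.43). A ratio or share was taken as changed where it moved by over 1.5 times. Taf9b kept its direction in all 9 comparisons under each alternative. Adding 1 FPKM to both values, which shrinks ratios of low values by construction, brought its log2 ratio to 1.40 in the ES cell pair, 1.74 in the day 2 pair, 2.41 for spinal cord over ES cells and 0.63 for day 6 over ES cells labelled WT. Members past 2-fold with this addition numbered 0 in the day 4, spinal column and column-over-cord comparisons and 2 for day 6 over ES cells labelled WT. Requiring over 1 FPKM in both libraries left 0 in the ES cell and day 2 pairs, 1 in the day 4 pair, 2 for day 6 over ES cells labelled WT and 0 for that labelled KO. Without a filter there were 2 in the spinal column pair and 2 for column over cord, Tbpl2 being listed at 0 in 1 library of each. Centring gave 2 for day 6 over ES cells labelled KO, and a 1.5-fold threshold gave 2 in the day 2 pair, 5 on day 6, 3 in spinal column and 2 for day 6 over ES cells labelled KO. Of the 206 alternative ratios of other members 4 changed, of Taf7l and Taf4b with 1 FPKM added, 5 of the 18 alternative share values changed, all with 1 FPKM added to both paralogs, and the peak counts of the 10 members stayed within 1.5 times. Among peaks scoring above their list's median, TAF9B peaks at starts of the other 9 TFIID genes fell from 6 to 3 and POL2 peaks at those of the SAGA genes from 2 to 1, the latter also when a peak had to overlap the start. Of the 5 genes most like Taf9b, 1 was shared with Spearman's rho, 3 with 0.1 FPKM added and 1 over the 8 culture libraries. Values of Taf9b and Taf7l near or below 1 FPKM, with depth unknown, are the least certain.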

Other observations

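The genes with the pattern most like Taf7l, chosen after its values were seen, were Rhox6 (Pearson's r of log2(FPKM + 1) 0.99 over 11 libraries), Rhox9 (0.99), Ppp1r14d (0.98), Dazl (0.98) and Fthl17a (0.98). By Spearman's rho 2 of these 5, Rhox6 and Rhox9, were again among the 5 most alike. Rhox6 and Rhox9 are homeobox genes known from reproductive tissues and, like Taf7l, are X-linked, and Dazl encodes an RNA-binding protein of germ cells. On EB day 6, Rhox6 was at 27.6 FPKM labelled WT and 148 labelled KO, Rhox9 at 24.0 and 113, and Dazl at 5.52 and 12.3. Rhox6, Rhox9 and Taf7l were listed at 0 in all 3 tissue libraries. The 11 points share clones and stages, and the relation was not tested.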
